A study of Canis lupus familiaris with 13 samples.

Results

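Cytosolic ribosomal protein genes were followed through 13 tumor biopsies from companion dogs treated with IMAX, nanoparticles injected into the tumor that carry the cytostatic paclitaxel and a STING-activating cyclic dinucleotide on a polymer made from polyethyleneimine and lithocholic acid. The genes were taken by symbol: L or S ribosomal protein names with a number and at most one trailing A, X or L, and the P proteins of the stalk. The rule took 74 of the 43427 symbols in the table, 43 of the large subunit (RPL) and 31 of the small subunit (RPS). Of these, 73 passed the filter on low counts, the exception being RPL10L, which had 0 or 1 count in every library. RPL32 was listed as a pair of split rows and was not taken by the rule. RPSA, FAU, RACK1 and a few L-like paralogs fall outside the rule and are given as a list of their own.

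The biopsies came from 4 tumors of 3 dogs, all treated with IMAX, and no untreated dog was among them. Dog RV had a soft tissue sarcoma sampled before treatment, 2 days after the second dose, and 2 weeks after the third dose at the injection site in mid mass and at an adjacent site. Dog CL carried a cranial and a caudal mammary tumor, each sampled before treatment and 1 week and 1 month after the second dose, so these 2 tumors share a host. Dog BM had a mammary tumor sampled before treatment and 1 week and 3 weeks after the second dose. Libraries were grouped as before (n = 4), early (2 days or 1 week, n = 4) and late (2 weeks to 1 month, n = 5). Each tumor gave 1 library per time point, apart from the 2 late sites of RV, so that a change within one tumor has no replicate of its own. Breed, strain and age are not given in the labels.

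The ribosome is built from a small subunit, which reads the messenger RNA, and a large subunit, which joins amino acids. Most ribosomal proteins are present once in each ribosome, and the genes for these proteins are strongly expressed in nearly every cell. Their messenger RNAs begin with a run of pyrimidines, the 5' TOP motif, through which mTOR and the binding protein LARP1 control how much of each message is translated. MYC drives their transcription, and cells that grow or divide make more ribosomes. A messenger RNA level is therefore only one layer of ribosome supply, and protein was not measured here.

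The libraries held between 11622444 and 29931125 counts. Several of them stood apart from the others of their tumor or from their label. The RV library at 2 days held 535 CPM (counts per 1000000 gene counts) of the epidermal keratin KRT1 against at most 1.40 in the other 3 RV libraries, 8500 CPM summed over 8 neutrophil markers against 32.4 to 38.6, and 5.42% of its counts on lncRNA genes against at most 1.74% in the other 12 libraries of the series. The caudal CL libraries before treatment and at 1 month held 24.7 and 38.8 CPM of the luminal keratin KRT8 and 88.9 and 191 CPM of COL1A1, against 600 to 2510 and 2170 to 3900 CPM in the cranial tumor. The caudal 1-week library had 528 CPM of KRT8, but its KRT18 was at 17.0, its EPCAM at 15.3 and its COL1A1 at 98.5 CPM. Summed over 13 mammary epithelial markers, the caudal tumor held 638, 983 and 736 CPM before treatment, at 1 week and at 1 month. The BM library at 3 weeks had 9.15 CPM of the epithelial marker EPCAM, against 597 CPM before treatment, and 31900 CPM of COL1A1 against 241, so that markers of its labelled mammary epithelium were low in it. In the paper's histology, the RV biopsy at 2 days showed extensive necrosis, and no neoplastic cells could be identified with certainty. The paper describes parts of the treated BM mass at 3 weeks as carcinosarcoma. In bulk tissue, fewer cells of a type and less RNA per cell cannot be told apart.

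The share of all gene counts that fell on the 74 genes ranged from 3.32% to 17.2%. In RV it was 17.2% before treatment, 3.32% at 2 days, and 14.0% and 10.2% at the late injection and adjacent sites. In the cranial CL tumor it was 6.76%, 4.89% and 12.1% before treatment, at 1 week and at 1 month. The caudal CL tumor held 13.1%, 6.95% and 11.9% at the same times. In these 3 tumors the early biopsy thus held the lowest share, and the late value lay above the value before treatment in the cranial one only. BM held 5.46%, 7.29% and 7.51%, with its lowest share before treatment. Counting error was small beside these differences, the widest 95% Wilson interval spanning 0.0374 percentage points, and such intervals cover counting error only.

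Averaged over libraries, the share was 10.6% ± 5.5 (SD, n = 4) before treatment, 5.61% ± 1.86 (SD, n = 4) early and 11.1% ± 2.43 (SD, n = 5) late. Early and late libraries did not overlap, although the gap was narrow: the highest early value was 7.29% and the lowest late value 7.51%, both from BM. Before-treatment libraries, from 5.46% to 17.2%, overlapped with both groups. Within tumors, early minus before averaged -5.02 percentage points, with an SD of 6.74 over 4 tumors. The individual changes were -13.9 points in RV, -6.18 in caudal CL, -1.87 in cranial CL and 1.83 in BM, and an exact two-sided sign-flip permutation test over the tumors gave p = 0.25. The late share was higher than the early one in 4 of 4 tumors, by 8.78, 7.16, 5.00 and 0.222 points in RV, cranial CL, caudal CL and BM. The mean was 5.29 points (SD 3.72), and the exact permutation p of 0.125 is the smallest that 4 tumors can give, so this design could not reach 0.05. Late against before, the mean difference was 0.269 points (SD 4.44, exact permutation p = 0.875), its sign turning to -1.40 points without the cranial CL tumor and to -0.324 without BM.

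**Figure D1:**
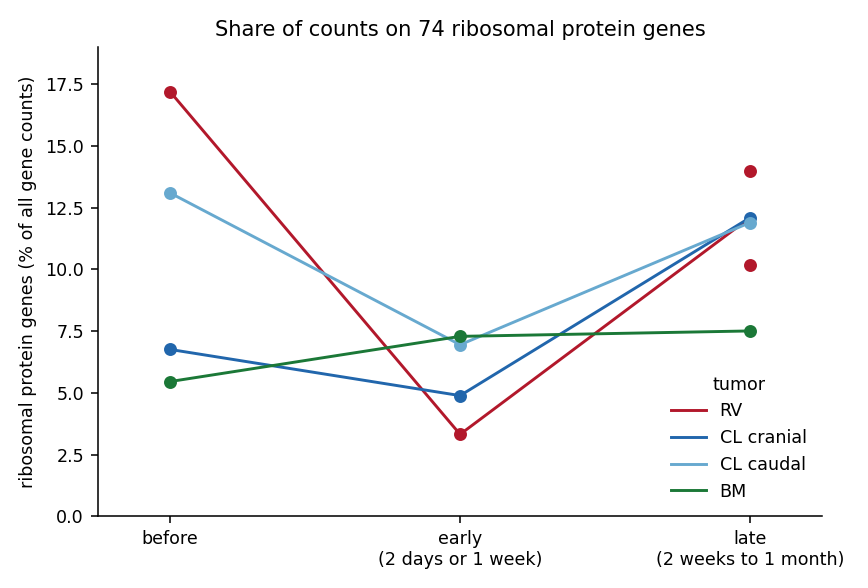
Percent of all gene counts on the 74 cytosolic ribosomal protein genes (vertical axis) before treatment, early and late (horizontal axis), with 1 point per library and 1 line per tumor. Lines of RV and both CL tumors dip at the early biopsy, RV from 17.2% to 3.32%, while BM runs upward, from 5.46% to 7.29% and 7.51%.

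Markers of other cells also differed between the biopsies. Macrophage markers (11 of 11 detected) summed to 366 to 782 CPM before treatment, 1400 to 3600 CPM early and 273 to 1060 CPM late, and every early library lay above all others. Epidermal markers (16 of 19 listed in the table) ranged from 63.6 to 7040 CPM before treatment, from 2080 to 3990 CPM early and from 43.1 to 1130 CPM late. In RV they went from 63.6 to 3990 CPM at 2 days, and in BM from 7040 to 2080 and 122 CPM. Fibroblast markers went from 1910 to 29500 and 82900 CPM in BM, from 17900 to 2930 and then 10900 and 23900 CPM in RV, and from 17800 to 10600 and 5620 CPM in cranial CL, and were between 1690 and 2160 CPM in caudal CL. The part of these cells in the ribosomal share was not tested. The balance of the subunits varied less than the share: RPL counts were 0.923 to 1.40 times RPS counts, the lowest at 1 month in the cranial CL tumor and the highest at 1 week in the caudal one. The 10 strongest genes held 25.3% to 36.5% of the ribosomal counts in a library.

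The fit across all 20118 tested genes (edgeR quasi-likelihood, tumor and time as terms) called none of the 73 genes at an adjusted p under 0.05 in any comparison. It called few genes of any kind over time, namely 0.00497% of all genes early against before, 0.0% late against before, and 0.00994% late against early. Between tumors it called 7.91% of all genes and again 0 of 73 ribosomal genes, although RPL17, RPL3 and RPL7 were called there (3 of 73, smallest adjusted p = 0.036) without the RV library at 2 days, in a fit that called 27.1% of all genes. At an unadjusted p under 0.05 the counts differed by comparison. Late against early, 30 of 73 genes (41.1%) passed, all higher late, where 8.87% of all genes passed in that direction. Early against before, 8 of 73 (11%) passed, all lower early, against 3.16% of all genes. Late against before, 0 of 73 passed against 4.0% of all genes in either direction, and between tumors 0 of 73 passed against 27.8%. The 2 comparisons that use the early libraries share them and are not independent of each other.

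A second tool, DESeq2, called 29 of the 73 genes (39.7%) late against early, all higher, where it called 6.97% of all genes in that direction. It called 0 of 73 early against before, where 4.75% of all genes passed, 0 late against before (0.0348% of all genes) and 0 between tumors (28.0%). Late against early, the edgeR count at unadjusted p was 9 in place of 30 without the RV library at 2 days, 10, 6 and 3 without the RV, caudal CL and cranial CL tumors, and 49 without BM. Over all genes, in either direction, 26.6% passed in the fit with every library, and 17.0%, 15.4%, 25.3%, 19.6% and 28.9% in those 5 fits. The ribosomal count was 0 without the caudal libraries before treatment and at 1 month and the cranial 1-month library, in which single genes scattered most, while 29.7% of all genes passed.

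The size and direction of the fitted changes ran alike across most of the genes. Median log2 fold changes over the 73 were -0.97 early against before (1 gene higher, 72 lower) and 1.14 late against early (70 higher, 3 lower), beside medians of 0.25 and -0.35 over all tested genes, the signs turning to 0.05 and -0.17 only when libraries were scaled to the ribosomal sum itself. Late against before the median was 0.20, with 47 genes higher and 26 lower. Taken as the distance from the median of all genes, these were -1.23, 1.49 and 0.242. The early median was -0.34 without RV, -0.54 without its 2-day library alone and -1.67 without BM, and the late against early median was 0.75 without that RV library.

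**Figure D2:**
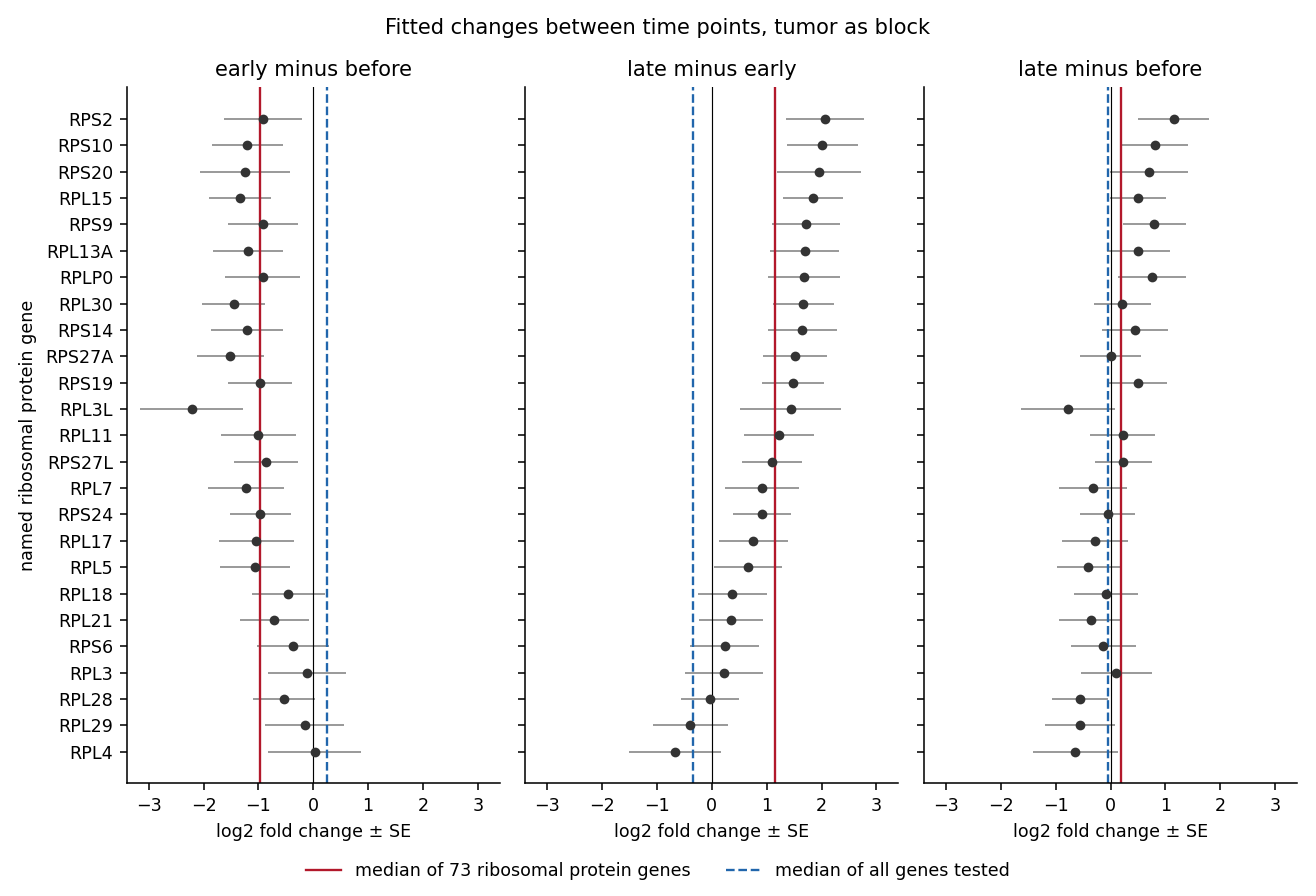
Fitted log2 fold changes (points) with SE (bars) of the named ribosomal protein genes (rows) for early minus before, late minus early and late minus before, with vertical lines at the median of the 73 ribosomal genes (solid) and of all genes tested (dashed). The solid line stands at -0.97, 1.14 and 0.20 in the 3 panels, and RPL4, RPL29 and RPL28 are the genes at or below 0 in the middle one.

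Within single tumors the direction was close to uniform. At 2 days in RV, 0 of 73 genes were higher than before treatment and the median log2 change was -3.04, from -3.93 for RPL5 to -2.08 for RPS27L. In BM, by contrast, 72 of 73 were higher at 1 week, with a median of 0.75 and RPS15 at the top with 1.82. Medians in the cranial and caudal CL tumors were -0.48 (2 higher) and -1.23 (9 higher). Between 43.2% and 54.5% of all tested genes were higher across the tumors and comparisons. Late against early, 73, 69, 60 and 66 of 73 genes were higher in RV, cranial CL, caudal CL and BM, with medians of 2.41, 1.57, 1.0 and 0.29. In all 4 tumors at once 54 of 73 genes (74%) were higher late, beside 12.9% of all genes.

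Among the genes that took most of the ribosomal counts were RPS14 (mean over libraries 3.99%), RPL13A (3.05%), RPL7 (3.0%) and RPLP0 (2.66%). A longer transcript takes more reads, so these shares do not rank the genes by molecules. RPS14, a small subunit protein near the mRNA exit whose loss is known from 5q- syndrome (chr4:59575541-59582143), was at 6030, 1260, 6630 and 2720 CPM in RV before treatment, at 2 days and at the late injection and adjacent sites. It went through 2470, 1770 and 6790 CPM in the cranial and 5830, 2470 and 5320 CPM in the caudal CL tumor, and 2240, 2590 and 3180 CPM in BM. The early library was lowest in each tumor but BM, and the fitted late against early log2 change was 1.65 (SE 0.63, edgeR adjusted p = 0.132). RPL13A, also known for a translation-silencing role after interferon gamma, gave 1.69 (SE 0.63, adjusted p = 0.123), whereas RPL7 gave 0.91 (SE 0.67). RPL7 was the strongest ribosomal gene of RV and of caudal CL before treatment, at 6380 and 6480 CPM, and was at 700 CPM in RV at 2 days.

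The smallest p early against before belonged to RPL30, RPS27A and RPL15. RPL30, a small large-subunit protein that lies at the subunit interface (chr13:407182-410785), was at 1980, 681, 1420 and 699 CPM before treatment in RV, cranial CL, caudal CL and BM and at 255, 486, 657 and 549 CPM early. Its CPM was lower early in each tumor, although on the TMM scale of the fit it did not decrease in BM, and the fitted log2 change was -1.45 (SE 0.58, edgeR adjusted p = 0.413). RPS27A, made as a fusion to ubiquitin, went from 3210, 848, 3060 and 909 CPM to 577, 561, 751 and 842 CPM. On the TMM scale it did not decrease in BM either, and the fitted change was -1.51 (SE 0.61, edgeR adjusted p = 0.417). RPL15 (chr23:20166279-20170467), a core protein of the large subunit, changed by -1.34 (SE 0.56, adjusted p = 0.437). Only RPL4 had a fitted value above 0, and at 0.03 (SE 0.84) it was far inside its error.

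Late against early the smallest p belonged to RPL15, RPS10 and RPL30. RPL15 was at 456, 774, 1400 and 1080 CPM early in RV, cranial CL, caudal CL and BM and at 2860 and 1900 (the RV sites), 2300, 3320 and 1820 CPM late. Every late library lay above every early one, and the log2 change was 1.84 (SE 0.55, edgeR adjusted p = 0.0809). RPS10, which sits at the mRNA entry side and is ubiquitinated on stalled ribosomes (chr12:3893184-3899342), changed by 2.01 (SE 0.65, adjusted p = 0.0911). Its early values of 483, 650, 817 and 867 CPM lay below the late values of 3030, 1140, 3410 and 3650 CPM in RV and CL. BM was at 788 CPM late, although on the TMM scale of the fit RPS10 was higher late than early there. RPL30 changed by 1.66 (SE 0.55, adjusted p = 0.0976). On the other side, RPL4 gave -0.67 (SE 0.84, adjusted p = 0.63), RPL29 -0.40 (SE 0.68) and RPL28 -0.03 (SE 0.53), none of them past its error. Without the 3 CL libraries of widest scatter the sign of each turned, to 0.789, 0.540 and 0.414.

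Late against before, no gene passed. RPS2 was the furthest in p with 1.15 (SE 0.65, edgeR adjusted p = 0.974), followed by RPS10 (0.81, SE 0.59) and RPS9 (0.80, SE 0.58). RPL28, RPL3L and RPL29 were lowest in p on the other side with -0.56 (SE 0.51), -0.78 (SE 0.85) and -0.55 (SE 0.64).

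The ribosomal genes did not all keep step with each other. To see this apart from the total, the log2 CPM of each gene was set against the median ribosomal gene of the same library and then against its own mean over the 13 libraries, for the 72 genes with a mean of at least 10 CPM. A deviation of 1 thus means that a gene took double its usual place relative to the other ribosomal genes of that library. The SD of this deviation over libraries had a median of 0.419, from 0.138 for RPL10A to 1.37 for RPL4, and was above 0.5 for 25 of 72 genes. The 8 most variable were RPL4, RPL29 (1.05), RPL18 (0.934), RPL28 (0.905), RPL3 (0.870), RPL17 (0.732), RPS20 (0.667) and RPL21 (0.661). The first principal component of the deviations held 59.8% of their variance and the second 14.0%.

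**Figure D3:**
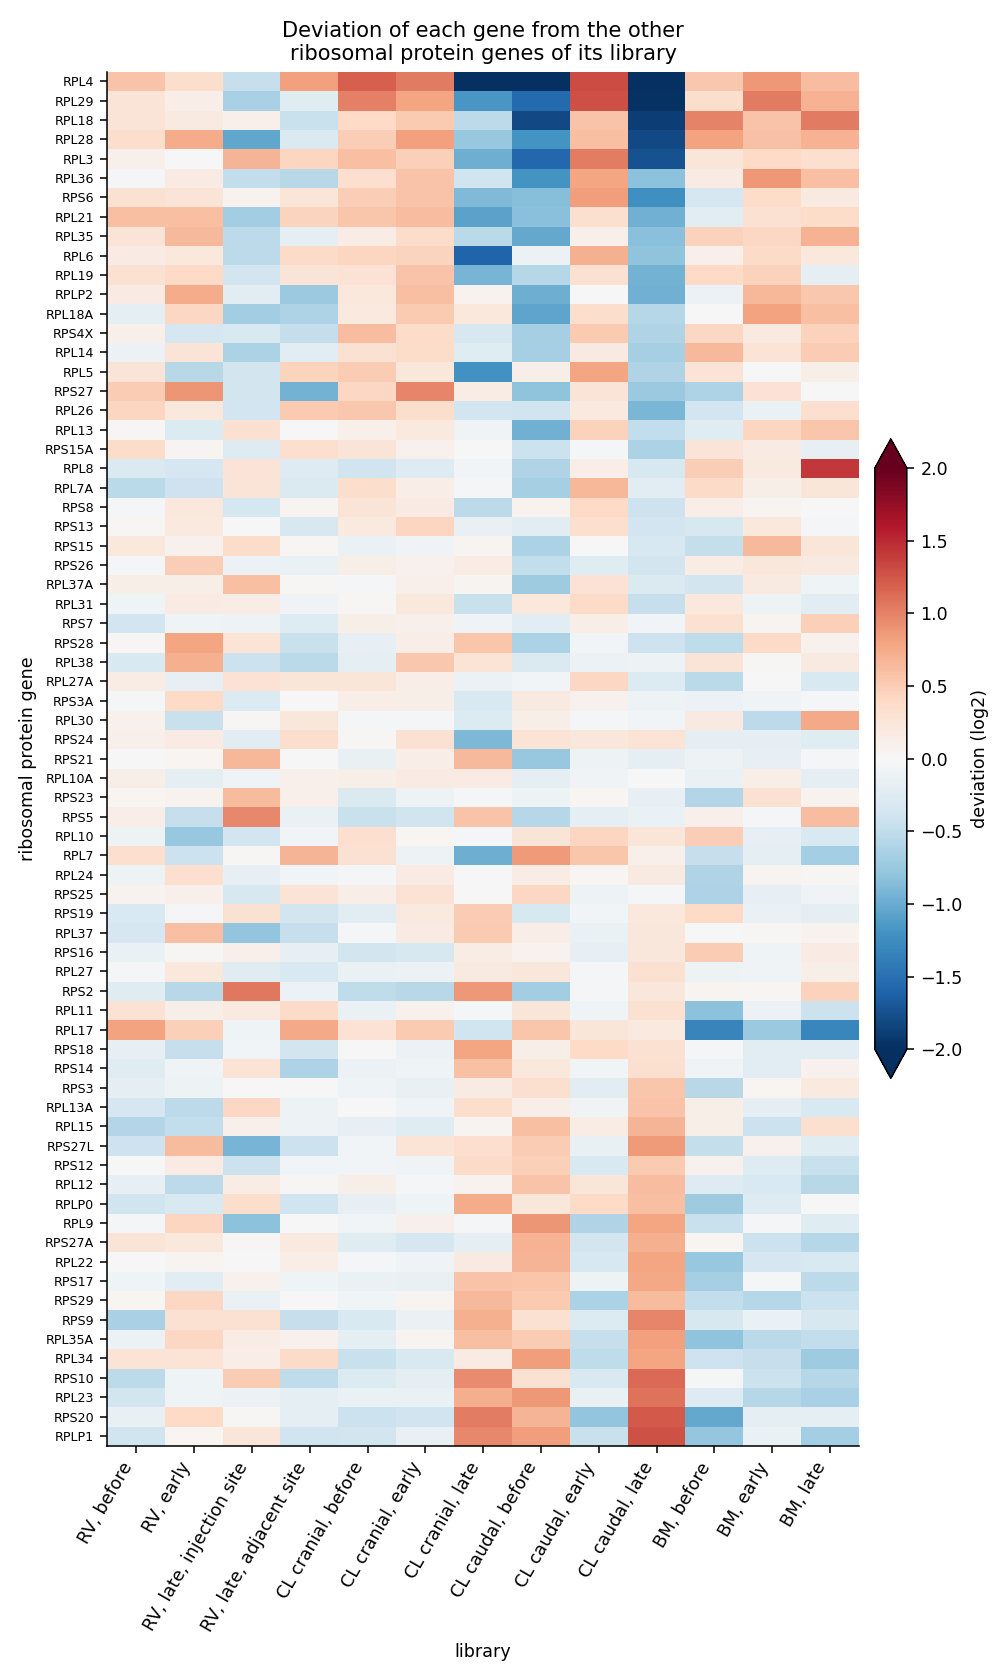
Map of the deviation (log2, colour) of the ribosomal protein genes shown (rows) in each of the 13 libraries (columns). Caudal CL before treatment, caudal CL at 1 month and cranial CL at 1 month carry the strongest colours, with RPL4 at -2.12, -2.36 and -2.36, whereas RPL10A stays near 0 throughout.

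RPL4, whose long loop reaches into the tunnel through which the new protein leaves (chr30:31193931-31198848), was the most variable. In the caudal CL tumor it was at 259, 1420 and 186 CPM before treatment, at 1 week and at 1 month. In the cranial tumor of the same dog it was at 1370, 867 and 197 CPM. RV held 2340, 379, 889 and 1650 CPM and BM 762, 1220 and 1030 CPM. Its part of the ribosomal counts was thus 0.197%, 2.04% and 0.156% in the caudal tumor and 2.02%, 1.77% and 0.164% in the cranial one, and 0.635% to 1.68% in the other 7 libraries. The lowest RPL4 count in any library was 2295 reads, so that sampling noise is small beside these differences. In the cranial tumor the 1-month library thus had the highest ribosomal share, 12.1%, and the lowest RPL4.

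RPL3, RPL18, RPL28 and RPL29 were low in the same 3 libraries relative to the other ribosomal genes. RPL3, the protein closest to the peptidyl transferase centre (chr10:26700748-26707146), was at 508, 1580 and 383 CPM in the caudal and 1210, 785 and 693 CPM in the cranial tumor. RPL18 (chr1:108363625-108368119) was at 259, 684 and 208 CPM in the caudal and 633, 485 and 569 CPM in the cranial tumor, its deviations in the 3 libraries being -1.80, -1.88 and -0.517. RPL28 (chr1:103067606-103070610) had deviations of -1.19 and -1.80 in caudal CL before treatment and at 1 month, -0.76 in cranial CL at 1 month and also -1.04 at the late RV injection site. RPL29 (chr20:38135177-38137563), known also as a heparin-binding protein, had -1.55, -1.97 and -1.16 in the 3 CL libraries. RPL21 (chr25:12388862-12393884) showed -0.834, -0.965 and -1.07 there. These genes deviated by 0.313 to 1.29 in the opposite direction in the caudal CL library at 1 week. Each gene is centred on its own mean, so some values of opposite sign follow by construction.

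RPS20 moved the other way. This small-subunit protein beside the mRNA entry (chr29:7985835-7987201) was at 4700, 867 and 5840 CPM in the caudal and 1150, 836 and 5400 CPM in the cranial tumor, with deviations of 0.682, -0.795 and 1.23 and of -0.434, -0.394 and 1.02. In RV its deviations lay between -0.191 and 0.401, and in BM it was low before treatment at -1.03. RPL17, which also lines the tunnel (chr7:79360996-79364974), set BM apart instead. It was at 441, 833 and 562 CPM there, deviations of -1.32, -0.750 and -1.31, and at 862 to 5790 CPM in the other 10 libraries, where deviations ran from -0.397 to 0.809. Between tumors RPL17 had the smallest p of the ribosomal genes, yet it did not pass (edgeR adjusted p = 0.21).

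**Figure D4:**
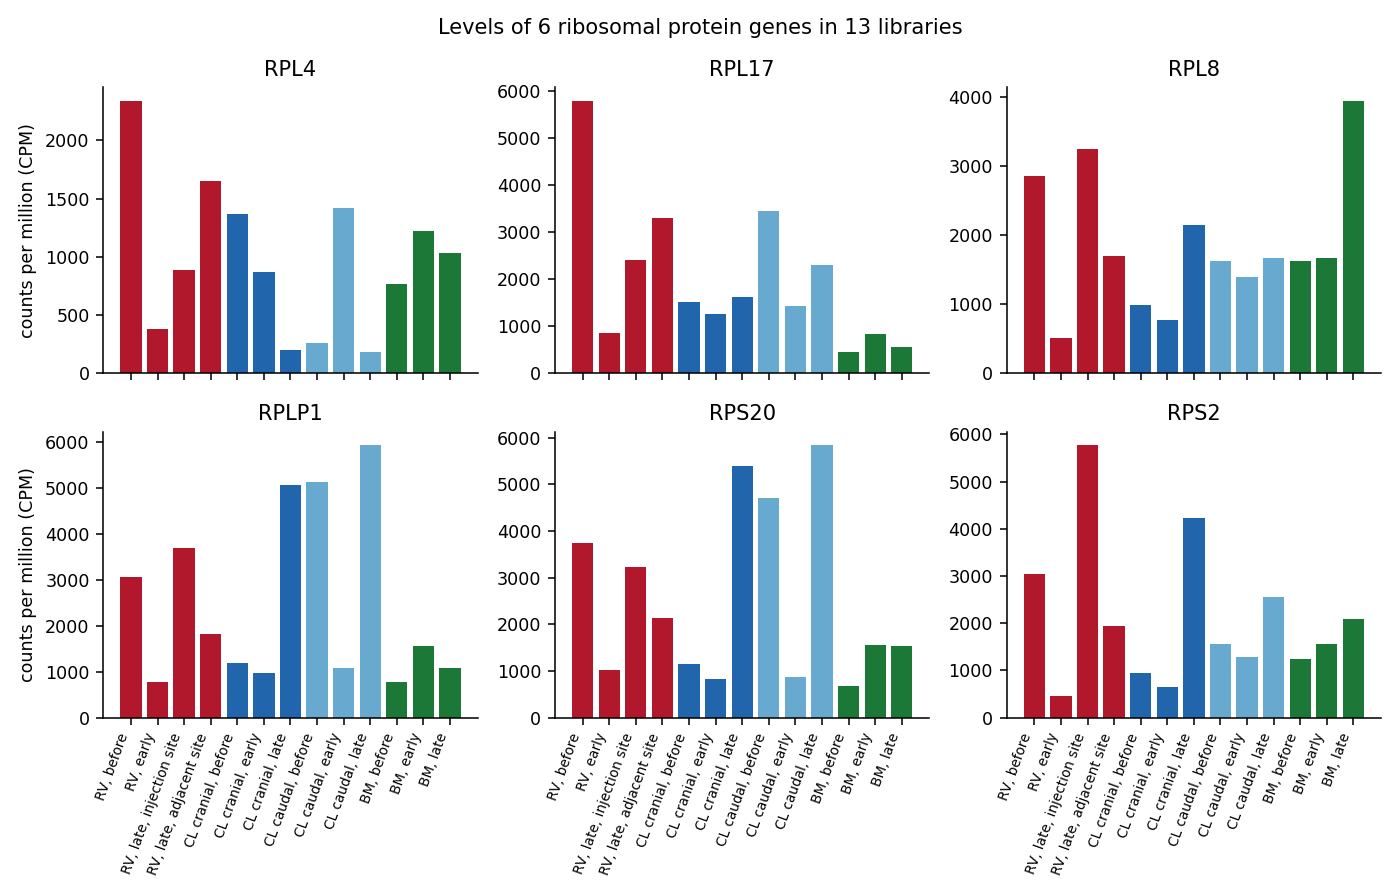
CPM of RPL4, RPL17, RPL8, RPLP1, RPS20 and RPS2 (vertical axes) in each of the 13 libraries (bars), ordered by tumor and time. RPL4 bars are short where those of RPLP1 and RPS20 are tall in caudal CL before treatment and both CL tumors at 1 month, RPL17 is low in all BM bars, and RPL8 is tallest in BM at 3 weeks with 3940 CPM.

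Grouped by place in the ribosome, the shifts followed several of these genes. The groups, and RPL8, RPLP1 and the other genes named from here on outside the fixed naming rule, were chosen after their values had been seen. The stalk, through which elongation factors are recruited (RPLP0, RPLP1, RPLP2, RPL12), held 9.61%, 7.16% and 11.2% of the ribosomal counts in the caudal and 6.5%, 6.76% and 10.6% in the cranial tumor, and 5.25% to 8.25% in RV and BM. RPLP1 alone was at 5130, 1090 and 5930 CPM in the caudal tumor and at 1190, 977 and 5060 CPM in the cranial one. RPLP0, the base of the stalk, was at 3830, 2220 and 4260 CPM and at 1550, 1160 and 4990 CPM, whereas RPLP2, the partner of RPLP1 on the stalk, was between 258 and 307 CPM in the caudal tumor. Late against early RPLP0 gave a log2 change of 1.68 (SE 0.66, edgeR adjusted p = 0.139) and RPLP1 1.81 (SE 0.77, adjusted p = 0.163).

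Proteins of the catalytic centre and tunnel (RPL3, RPL4, RPL8, RPL10, RPL17) held 6.84%, 11% and 6.02% in the caudal and 10.2%, 9.61% and 5.79% in the cranial tumor. RPL3 and RPL4 made up most of the difference, since RPL10 held 2.40%, 2.64% and 2.23% and RPL17 2.62%, 2.04% and 1.92% in the caudal tumor. RPL8, also near the catalytic centre, was at 3940 CPM in BM at 3 weeks, a deviation of 1.42 and the highest ribosomal count of that library, against 1620 and 1660 CPM before and at 1 week. Around the mRNA channel (RPS2, RPS3, RPS10, RPS20) the part was 9.06%, 5.90% and 12.8% in the caudal and 6.27%, 6.14% and 13% in the cranial tumor. RPS2, at the mRNA entry (chr6:39411841-39413733), was at 460 CPM in RV at 2 days and 5770 and 1950 CPM at the late injection and adjacent sites. Its late against early log2 change was 2.06 (SE 0.70, edgeR adjusted p = 0.103).

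RPL5 and RPL11 form the 5S particle with 5S ribosomal RNA and, when free, bind MDM2 and so stabilise p53. RPL5 (chr6:56700600-56711209) was at 2970, 315, 1490 and 1990 CPM in RV, 1340, 777 and 692 CPM in cranial CL, 1910, 1570 and 990 CPM in caudal CL and 1000, 1060 and 1140 CPM in BM. RPL11 (chr2:75175305-75179710) was at 2950, 488, 2150 and 1870, at 834, 686 and 1520, at 2030, 832 and 1800, and at 458, 946 and 763 CPM in the same order. At 1 month in CL, the CPM of RPL11 was above and that of RPL5 below its 1-week value in both tumors. On the TMM scale of the fit the partners parted in this way in the caudal tumor only. Together they held 1.83% to 3.79% of the ribosomal counts. The fitted late against early changes were 0.66 (SE 0.62) for RPL5 and 1.22 (SE 0.64, edgeR adjusted p = 0.241) for RPL11.

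RPS6, the kinase target used as a readout of mTOR activity (chr11:39218708-39222435), was at 3390, 611, 2220 and 1900 CPM in RV. Its CPM was lower at 1 month than at 1 week in both CL tumors. It was at 949 against 1080 CPM in the cranial and at 703 against 1780 CPM in the caudal. On the TMM scale of the fit it was lower at 1 month in the caudal tumor only. In BM it was at 719, 1490 and 1310 CPM. Its late against early change was 0.24 (SE 0.63, edgeR adjusted p = 0.83). RPS19, mutated in Diamond-Blackfan anemia (chr1:113158731-113167322), was at 504, 849, 972 and 1080 CPM early and at 2660 and 1280, 2550, 1940 and 1030 CPM late in RV, cranial CL, caudal CL and BM, a change of 1.47 (SE 0.57, adjusted p = 0.134).

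RPL3L and RPL10L, paralogs of restricted expression, had few reads here. RPL3L, which replaces RPL3 in striated muscle (chr6:39418319-39426245), was between 0.134 and 2.98 CPM, with 4 to 58 reads a library. Its early values of 0.240 to 0.563 CPM lay below the before values of 0.800 to 2.98 CPM, but the fitted change of -2.21 (SE 0.94, edgeR adjusted p = 0.443) rests on these few reads. RPL10L, the testis retrogene copy of RPL10, had 1 read in RV at 2 days and 1 in caudal CL at 1 month. RPS27L, a p53 target, ranged from 122 CPM in BM before treatment to 553 CPM in caudal CL at 1 month, and in RV it had the smallest decrease of the 73 genes at 2 days, from 385 to 147 CPM. RPL39L was not analysed here.

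The single-gene scatter differed from library to library. In caudal CL before treatment 39 of 72 genes deviated by more than 0.5 (15 above, 24 below), in caudal CL at 1 month 39 (19 above, 20 below) and in cranial CL at 1 month 32 (17 above, 15 below). The other 10 libraries had 8 to 22. The SD over the 72 genes was 0.690, 0.791 and 0.636 in those libraries, and 0.417 in caudal CL at 1 week. Profiles over the 72 genes were alike between caudal CL before treatment and at 1 month (Pearson r = 0.884) and between both CL tumors at 1 month (0.745). The caudal 1-week profile instead ran with the untreated cranial one (0.809) and against its own tumor at 1 month (-0.779). These values describe genes and not replicates, and each gene's mean over the same 13 libraries enters both profiles.

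**Figure D5:**
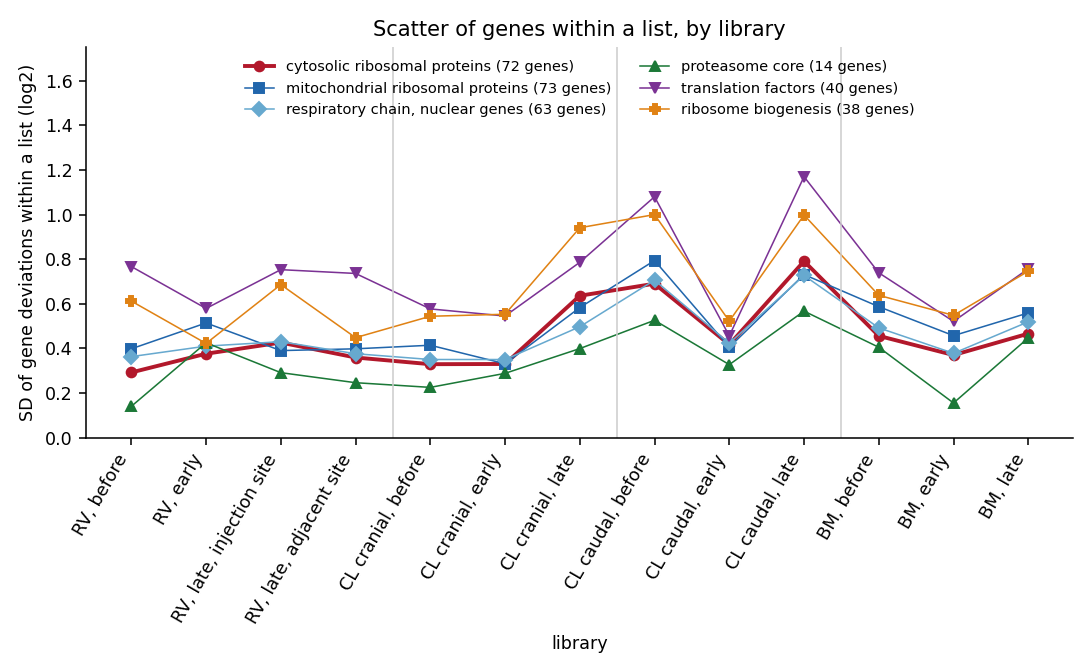
SD of the single-gene deviation (log2, vertical axis) in each library (horizontal axis) over the 72 ribosomal protein genes (thick line) and over 5 other lists of genes. Caudal CL before treatment and at 1 month and cranial CL at 1 month stand highest for the ribosomal genes, at 0.690, 0.791 and 0.636.

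Other gene groups were scattered in the same libraries. Translation factors had SDs of 1.08, 1.17 and 0.786 in caudal CL before treatment, caudal CL at 1 month and cranial CL at 1 month, ribosome biogenesis genes 1.0, 0.998 and 0.941, and mitochondrial ribosomal proteins 0.794, 0.731 and 0.583. Genes in gene-dense regions, the top 20% by number of protein-coding genes within 500 kb, were set against the bottom 20%, each gene relative to its own mean. The difference in median log2 level was -1.34, -1.03 and -0.342 in those libraries, -1.67 in RV at 2 days and 1.45 in BM at 3 weeks. The part of such a library-wide shift in the ribosomal deviations was not tested. The genes beside each ribosomal gene were also read. For RPL4 the 20 nearest tested protein-coding genes had medians of 0.181, 0.004 and -0.163 in the 3 CL libraries. Here each neighbour was set against its own mean only, and not against the ribosomal median of the library. The deviations of RPL4 itself, -2.12, -2.36 and -2.36, are therefore on another scale. Neighbours of RPL18 were at -1.44, -1.43 and -0.729, and those of RPL3 at -0.884, -0.816 and -0.305. RPL8 in BM at 3 weeks had neighbours at 1.37, and these stood at 1.29 before treatment, when RPL8 was at 1620 CPM. Over the 72 genes the correlation of a gene's deviation with the median of its neighbours was 0.0375 to 0.707 by library, highest in BM before treatment. In caudal CL before treatment, caudal CL at 1 month and cranial CL at 1 month it was 0.39, 0.219 and 0.0375. Neighbouring ribosomal genes share some of their neighbours.

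The late RV sites gave the only pair of libraries from one tumor and time. The injection site had 14.0% of its counts on ribosomal genes and the adjacent site 10.2%. Of 73 genes, 55 were higher at the injection site, with a median log2 difference of 0.421, an SD of 0.546 and a range from -0.898 to 1.56. RPS2 was the highest. A difference of this size came from one mass on one occasion, and the median late against before changes within tumors were -0.65 in RV (1 of 73 higher), 1.17 in cranial CL (63), -0.25 in caudal CL (17) and 1.16 in BM (72).

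Most ribosomal genes outside the rule kept similar company. RPL32, as its main row, ranged from 334 CPM in RV at 2 days to 1820 CPM in RV before treatment. RACK1, a scaffold on the small subunit, was at 2790, 1260 and 3880 CPM in the caudal and 860, 556 and 3550 CPM in the cranial CL tumor. The 8 genes of this list had a median late against early log2 change of 0.91, with 7 higher and 1 lower. RPL7L1 was the lower one, at -0.30 (SE 0.491). RACK1 and RPSA passed an unadjusted edgeR p of 0.05, both higher, where 8.87% of all genes passed in that direction.

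Among related groups, no list had a gene called over time at an adjusted p under 0.05. Late against early, the unadjusted threshold was passed, all in the higher direction, by 40 of 74 mitochondrial ribosomal proteins (median 0.87), 42 of 63 nuclear respiratory chain genes (median 1.21), 11 of 14 proteasome core genes (median 1.28), 14 of 40 translation factors (median 0.61) and 6 of 38 ribosome biogenesis genes (median 0.27). The cytosolic ribosomal genes at 30 of 73 were therefore not alone, and each share stands beside 8.87% of all genes. MRPL13 gave 1.64 (SE 0.36, edgeR adjusted p = 0.0603), the cap-binding protein EIF4E 1.28 (SE 0.294, adjusted p = 0.0603), and the nucleolar methyltransferase FBL 2.16 (SE 0.463, adjusted p = 0.0603). Early against before, 8 mitochondrial ribosomal proteins, 12 respiratory chain genes, 6 translation factors, the biogenesis genes NMD3, FBL and LTV1 and the proteasome subunit PSMA3 passed, all lower, where 3.16% of all genes did. Replication histones, which lack a poly(A) tail, had 13 of 47 genes tested and 0 past either threshold.

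Genes that regulate ribosomal protein messages were read in the same libraries. LARP1 was at 44.5, 149 and 56.3 CPM in caudal CL, 148, 158 and 71.5 CPM in cranial CL, 42.3, 58.7, 23.9 and 37.4 CPM in RV and 190, 97.0 and 78.5 CPM in BM. In RV and both CL tumors its CPM was highest in the early biopsy, where the ribosomal share was lowest. On the TMM scale of the fit LARP1 was highest early in both CL tumors, but before treatment in RV. MYC was at 8.02, 80.8 and 7.31 CPM in the caudal tumor, 80.1, 51.6 and 7.40 CPM in the cranial one, 21.1, 14.4, 17.2 and 19.4 CPM in RV and 116, 62.4 and 39.4 CPM in BM. MTOR ranged from 13.2 CPM in caudal CL before treatment to 87.6 CPM in BM at 1 week. Late against early the log2 changes were -0.53 (SE 0.333) for LARP1, -1.17 (SE 0.757) for MYC and -0.59 (SE 0.459) for MTOR, with edgeR adjusted p of 0.326, 0.339 and 0.425. Over the 15 regulators the median was -0.53. RHEB, which activates mTOR, was the only higher gene past the unadjusted threshold at 1.42 (SE 0.456, edgeR adjusted p = 0.0905), and MYCN the only lower gene. Of all genes, 8.87% passed in the higher and 17.7% in the lower direction. Of 10 genes of the translational stress response, the interferon-induced kinase EIF2AK2 (1.88, SE 0.572, adjusted p = 0.276) and PPP1R15A (1.34, SE 0.527, adjusted p = 0.41) were higher early than before, and lower late than early, at unadjusted p under 0.05, where 7.69% and 17.7% of all genes passed in those directions. DDIT3 and PPP1R15A (2 of 10, beside 7.91% of all genes) differed between tumors with edgeR adjusted p of 0.00376 and 0.0245.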

How the data were processed

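Strand-specific RNA-seq of total RNA was made from 13 biopsies. The authors deposited a table of raw read counts per gene symbol, aligned to CanFam4 with Strand NGS, and the submitters' processing notes name edgeR. The annotation release, the counting rule and the treatment of reads with several matches are not given in the sources used here. Ribosomal protein genes have many processed pseudogenes, so single-gene counts are uncertain to that extent.

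The members and lists were chosen with earlier results of these data known. CPM are counts per 1000000 gene counts, without TMM. Counts were filtered with filterByExpr (minimum count 10), scaled by TMM and fitted with edgeR 4.0.16 (quasi-likelihood, robust, R 4.3.3), with terms for time and tumor over all 13 libraries (biological coefficient of variation 0.672, residual degrees of freedom 7) and Benjamini-Hochberg adjustment over 20118 genes at 0.05. DESeq2 1.42.0 was an alternative. Per-tumor changes used log2 CPM with TMM and prior count 2. The fit was also run on simulated data with less spread than these libraries and no differences between tumors. That run does not show how the fit performs at the spread seen here. Shares were compared by exact sign-flip permutation over tumors. Each pair of libraries differed by at least 41.3 in chi-square per degree of freedom, so none was a duplicate. Biopsies of one tumor are paired by the mass they came from, and their mean correlation of deviations was 0.229, 0.587 and 0.191 (early with before, late with before, late with early), with lowest pairs at -0.0534, 0.318 and -0.0965. No label pairs libraries by replicate number. Replicates are tumors or sites, and 2 tumors share a dog, so p-values cover only the spread between these biopsies.

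Named genes were the 5 with the largest share of member counts, the 3 with the smallest p in each direction of a comparison, the 8 with the largest deviation SD, RPL3L, RPL10L, RPL39L, RPS27L, RPL5, RPL11, RPS19, RPS6, up to 3 per pathway list, and LARP1, MYC and MTOR, apart from a gene that is not reported here by name. Coordinates are those of RefSeq on UU_Cfam_GSD_1.0, and 42574 of 43427 symbols (98.0%) matched. No transcript lengths or sequences were used here. Alternatives covered normalization, filter, block, summed tumors or sites, and leaving out each tumor, late RV site and doubted library.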

Additional observations from a re-analysis of the deposited data

Results flagged for a closer look

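The change of the ribosomal share from before treatment to the early biopsy ran in opposite directions in the mammary tumors of the 2 dogs. It was -6.18 percentage points in the caudal and -1.87 in the cranial CL tumor, and 1.83 in BM, all 3 sampled 1 week after the second dose. The difference between the dogs was not tested, since BM is a single tumor with 1 library per time point. Beside it, summed macrophage markers went up in all 3 (644 to 1420, 782 to 3060 and 419 to 3600 CPM), whereas epidermal markers went up in caudal and cranial CL (421 to 3870 and 1290 to 2130 CPM) and down in BM (7040 to 2080 CPM). Of 81 groups of 4 or 5 libraries examined for one outlying value, 0 stood out, where about 4.05 would by chance.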

How the results depend on the processing

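The share of counts kept its direction under every alternative run early against before and late against early. Late against before it turned to -0.423 points with the CL tumors summed and to -0.206 with the adjacent RV site alone, and leaving out one tumor gave -1.40 to 2.05. Late against early, ribosomal genes called were 29 by DESeq2 and 1 (RPL28, lower) when scaled to the ribosomal sum, which by construction moves their median to -0.17; leaving out one tumor or library gave 0 called throughout and medians of 0.75 to 1.65. Between tumors that range was 0 to 3 called, the 3 (RPL17, RPL3 and RPL7) without the RV library at 2 days, where 27.1% of all genes were called. Counts at unadjusted p ran from 0 to 50 early against before and from 0 to 49 late against early. Early against before they were 30 by DESeq2, 35 with no tumor block, 50 without BM, and 0 without RV or without its 2-day library. Over all genes, in either direction, 19.7%, 11.6%, 15.6%, 6.51% and 9.23% passed in those fits. Late against early DESeq2 gave 41, where 37.1% of all genes passed. Across all genes, late against early calls were 2, against 10 with total counts, 1081 with no filter, 4809 by DESeq2 and 4410 when scaled to the ribosomal sum. Total-count scaling moved the median of all genes to 0.45, -0.31 and -0.81 in the 3 comparisons, and the ribosomal genes' distance from it was -1.18, 0.365 and 1.56.

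Signs turned for genes near 0. RPL4 early against before was -0.0355 with DESeq2 size factors, -0.0311 with no filter, -0.569 with no block, -0.0252 with dog as block, -0.342 with CL summed, -0.00159 with RV sites summed, -0.114 on the compared libraries alone, -0.0356 by DESeq2 and -0.954 without 3 scattered CL libraries (caudal before and 1 month, cranial 1 month; added after seeing the data, as was leaving out the RV 2-day library), with -0.871 to 0.699 on leaving one out. RPL4 late against early was 0.221 with no block and 0.789 without those CL libraries (-1.36 to 0.202). RPL28 was 0.244 with no block, 0.204 with CL summed, 0.00907 with RV sites summed, 0.115 on compared libraries and 0.414 without the CL libraries (-0.450 to 0.419), and late against before -0.971 to 0.022. RPL29 late against early was 0.540 without the CL libraries (-0.985 to 0.338). The cause was not tested. The labels give no replicate numbers, so libraries were paired by tumor, which is a term in every fit but those with no block or with dog as block.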

Other observations

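Messages with the same 5' TOP motif outside the ribosomal genes were also read off, chosen after seeing the data. TPT1, a growth-related protein, was at 3130 CPM before treatment, 1550 CPM at 2 days and 3020 and 2130 CPM late in RV, 1600, 1820 and 2310 CPM in cranial CL, 3210, 2170 and 3150 CPM in caudal CL and 1030, 2530 and 1950 CPM in BM. EEF1A1, the factor that brings aminoacyl-tRNA to the ribosome, was at 14300, 2010, 13200 and 13000 CPM in RV. It was at 9040, 4870 and 3070 CPM in cranial and 5240, 4290 and 3240 CPM in caudal CL, lowest at 1 month where the ribosomal share was not, and at 5090, 6270 and 4810 CPM in BM. In BM at 3 weeks RPL8 and RPL30, which lie on the same chromosome in RefSeq (chr13:38851293-38854172 and chr13:407182-410785), deviated by 1.42 and 0.751.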
